A study of Mus musculus with 3 samples.

Results

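Genes of glycolysis and the pentose phosphate pathway were examined in single blood leukocytes of untreated mice. The members are 32 symbols chosen by name: glucose and lactate transporters, the enzymes from hexokinase to lactate dehydrogenase, the enzymes of the pentose phosphate pathway, and the regulators Pfkfb3, Pfkfb4, Pdk1, Pdha1 and Fbp1. Of these, 30 were matched among 19059 genes. Gapdh and Eno1 were not analysed here. Aldoa has 2 rows, and the row ENSMUSG00000114515 held 3 unique molecular identifiers (UMIs, each standing for 1 captured probe molecule) over all cells fitted, so Aldoa below is ENSMUSG00000030695. After the filter on low counts 29 members were tested. Fbp1, a gluconeogenic phosphatase, gave 2 UMIs in neutrophils, 2 in NK cells and 0 in the other types, and it was not tested.

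Peripheral blood leukocytes came from male untreated mice aged 8, 9 and 10 weeks, with 1 library at each age (replicates 1, 2 and 3), so no age was compared with another. The labels name no strain and do not state that the libraries are separate animals, in which case p-values measure only the spread between these samples. Red cells were lysed, nucleated cells were sorted by nuclear dyes and fixed, and transcripts were counted with probes on a droplet platform. The design holds no treatment, and every comparison here is between cell types within the same 3 libraries.

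Glycolysis converts glucose to pyruvate. Glucose enters through facilitative transporters, hexokinase traps it as glucose 6-phosphate, phosphofructokinase commits it, and pyruvate is either reduced to lactate and exported or oxidised in mitochondria. The pentose phosphate pathway branches off at glucose 6-phosphate. Its oxidative arm makes NADPH, which neutrophils and other phagocytes use for the oxidative burst, and its non-oxidative arm exchanges carbon between pentoses and glycolytic sugars. Many of these steps are encoded by several isoform genes with different tissue use, so the identity of the isoform can mark a cell type.

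Cells were called from raw marker UMIs with no clustering. A call needed at least 8 UMIs over at least 2 markers of 1 list and no other list above 20% of it, limits that were set after the UMI distributions had been seen. Dendritic cells were called from a conventional or a plasmacytoid list, and cells of both were summed. For them the classical monocyte list was allowed up to 100% of their own. They held on average 10.5, 11.5 and 7.73 UMIs of it per cell against 24.8, 19.8 and 35.4 of their own. The libraries held 11105, 5736 and 7029 barcodes with 45718031, 19591648 and 23443660 UMIs, and 88.8%, 75.7% and 84.7% of the barcodes were called. Barcodes mixed over 2 lists (942, 372 and 392) were left out as possible doublets. The called cells were 2703 neutrophils, 572 classical monocytes, 595 patrolling monocytes, 9571 B cells, 5848 T cells, 823 NK cells and 48 dendritic cells. Their own markers bear the names out: neutrophils held on average 66.3 to 72.3 UMIs of the neutrophil list per cell and classical monocytes 111 to 141 of theirs. Classical monocytes also held 4.89 to 4.99 UMIs of the neutrophil list, whose part in their values was not tested. Median depth per cell was 8150 to 9327 UMIs in classical monocytes and 2659 to 2821 in neutrophils. Free red cell RNA differed between libraries, with a median of 0, 8 and 1 red cell marker UMIs per neutrophil in replicates 1, 2 and 3, and 1.66%, 18.7% and 7.97% of neutrophils held a platelet marker UMI. The libraries shared 83, 101 and 48 cell barcodes by pair.

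Values are UMIs summed per sample and type and given as CPM (each UMI count relative to its library total) scaled by the trimmed mean of M-values (TMM CPM), as mean ± SD over 3 samples. UMIs of different genes come from different probes, so a gene's level, or its share of its family's UMIs, was compared between cell types and is no measure of 1 gene's transcripts against another's. Tests are edgeR quasi-likelihood tests with the library as a block, and adjusted p-values are Benjamini-Hochberg values over 10456 genes.

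Most members had higher TMM CPM in myeloid cells than in lymphocytes, with the largest folds at Slc16a3, Hk3, Hk2, Pfkfb4, Pgd and G6pdx. Setting the mean of neutrophils and both monocyte types against the mean of B, T and NK cells, 19 of 29 members were higher and 6 lower. Among all genes tested, 35.5% were higher and 44.4% lower. The median log2 fold was 1.35 over the members and −0.15 over all genes. At a fold of 2 or more, 16 members were higher against 17.7% of all genes, and 1 member, Pfkm, was lower against 23.2%. The log2 fold of Pfkm, which rests on 1 neutrophil UMI, was −1.22, and −3.12, −0.998 and −2.40 without replicates 1, 2 and 3.

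Slc16a3 encodes MCT4, the lactate exporter of strongly glycolytic cells. Its level was 793, 758 and 753 TMM CPM in neutrophils, 93.0, 80.8 and 84.9 in classical monocytes and 336, 257 and 302 in patrolling monocytes. In lymphocytes it was 0.950 ± 0.406 in B cells, 1.89 ± 0.736 in T cells and 7.20 ± 3.84 in NK cells (SD, n = 3 here and below). No myeloid sample overlapped a lymphoid one, and the log2 fold was 6.69 ± 0.09 (SE, adjusted p = 4.8e-56). G6pdx, the entry enzyme of the oxidative arm, lay at 345, 326 and 316 in neutrophils, 302, 378 and 300.2 in classical and 282, 374 and 289 in patrolling monocytes, which overlapped one another. The 3 lymphocyte types held 31.0 to 35.7 on average, and the log2 fold was 3.24 ± 0.06 (adjusted p = 5.1e-45). Within the myeloid types G6pdx did not pass the test, but on plain library totals it was lower in neutrophils than in classical monocytes (log2 −0.81, adjusted p = 9.8e-15).

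Pgd, which makes the pathway's other NADPH, and Taldo1, a transaldolase of the non-oxidative arm, fell from neutrophils through monocytes to lymphocytes. Pgd held 2192, 2022 and 2067 TMM CPM in the 3 neutrophil samples, 569 ± 17.4 in classical monocytes, 346 ± 39.7 in patrolling monocytes and 66.6 to 83.5 in the lymphocyte types. Taldo1 held 3776, 3757 and 3488 in neutrophils, 778 ± 57.5 and 614 ± 91.1 in the monocyte types and 121 to 152 in lymphocytes. Neither gene had a myeloid sample within the lymphoid range. The myeloid log2 folds were 3.33 ± 0.05 for Pgd (adjusted p = 5.3e-52) and 3.19 ± 0.05 for Taldo1 (adjusted p = 3.4e-52). Tkt, the transketolase, was highest in patrolling monocytes at 728 ± 15.9. Neutrophils held 568 ± 24.3 and classical monocytes 483 ± 27.3, with no overlap between these neighbours on TMM. The fold between neutrophils and classical monocytes changed sign on plain totals (log2 −0.60), so no direction is given for that pair. Lymphocytes held 99.8 to 135, and the myeloid log2 fold of Tkt was 2.30 ± 0.05 (adjusted p = 5.6e-45).

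The remaining 2 pentose phosphate members did not follow this split. Pgls, the lactonase between G6pdx and Pgd, was 228 ± 9.10 in classical monocytes and 215 ± 11.2 in B cells, whose samples overlapped, and lowest in neutrophils at 64.7 ± 11.1. It did not pass the test between myeloid and lymphoid cells (log2 −0.09, adjusted p = 0.27). Rpia, a pentose phosphate isomerase, was highest in B cells at 109 ± 6.12 and slightly lower in myeloid than lymphoid cells (log2 −0.29 ± 0.07, adjusted p = 0.00027).

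**Figure D1:**
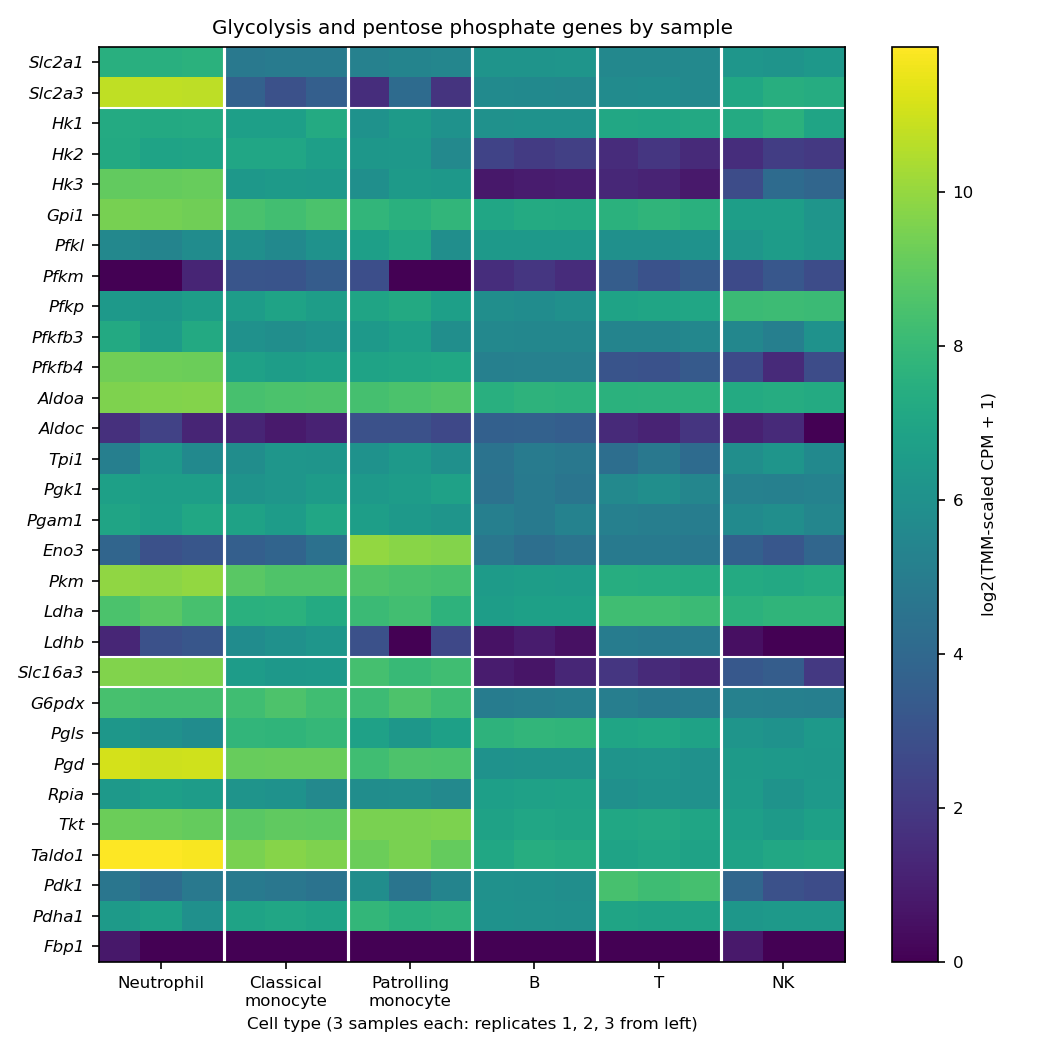
Each row is a gene, each column 1 sample of a cell type (replicates 1, 2 and 3 from the left), and colour is log2(TMM CPM + 1). Neutrophils are brightest at Slc2a3, Pgd and Taldo1, patrolling monocytes stand out at Eno3, and T cells at Pdk1.

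Of the other members with large myeloid folds, Hk3 (6.03 ± 0.13, adjusted p = 2.2e-45), Hk2 (5.35 ± 0.12, adjusted p = 4.5e-43) and Pfkfb4 (4.17 ± 0.08, adjusted p = 5.9e-47) are isoform genes described below. Pkm, pyruvate kinase, was 956 ± 44.2 in neutrophils, 417 ± 40.3 and 360 ± 27.2 in classical and patrolling monocytes and 93.3 to 162 in lymphocytes (log2 2.01 ± 0.05), and its M1 and M2 splice forms were not resolved. Eno3 (1.43) and Ldhb (2.63, and 3.68 without replicate 1) also passed and are given by type below, but neither was higher in every myeloid type. Mean Eno3 in neutrophils (9.57) and classical monocytes (15.1) lay below that in B (22.4) and T cells (27.5). Mean Ldhb in neutrophils (5.45) and patrolling monocytes (3.90) lay below that in T cells (29.2), and NK cells gave 1 Ldhb UMI. Of the members lower in myeloid cells, Pdk1 (−0.99), Pfkp (−0.30) and Pfkl (−0.20) were called, and Pfkl lost its call without replicate 2 (−0.16). The middle enzymes Gpi1, Aldoa, Pgk1 and Pgam1 had myeloid log2 folds of 1.35 to 1.47. Smaller folds passed for Tpi1 (0.93), Pdha1 (0.65) and Ldha (0.53), of which Pdha1 lost its call (0.06) and Ldha changed sign (−0.06, adjusted p = 0.23) on plain library totals. Plain totals moved the median of all genes from −0.15 to −0.74 and left 2183 genes higher and 6949 lower, against 3717 and 4644 on TMM. On that scale 17 members were higher and 9 lower, and 17 higher and 6 lower calls held on TMM, plain totals and DESeq2 size factors alike.

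The promoters of the genes with the sharpest myeloid or monocyte pattern are shown. Several of these genes are textbook targets of hypoxia-inducible factor (HIF), and 1 form of its core, ACGTG, was searched. The 250 bases before the RefSeq start (GRCm38.p6) are given on the gene's strand, with each ACGTG or its reverse complement CACGT in capitals. They lie at chr11:70656926-70657175 for Eno3 on the plus strand, at chr6:82774455-82774704 for Hk2 on the minus strand, at chr13:55021386-55021635 for Hk3 on the minus strand and at chr11:120948817-120949066 for Slc16a3 on the plus strand.
Eno3: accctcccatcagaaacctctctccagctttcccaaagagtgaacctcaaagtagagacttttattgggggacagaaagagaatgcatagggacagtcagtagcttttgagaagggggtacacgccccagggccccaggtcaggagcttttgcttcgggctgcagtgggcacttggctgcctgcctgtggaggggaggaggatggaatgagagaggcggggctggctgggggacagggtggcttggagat
Hk2: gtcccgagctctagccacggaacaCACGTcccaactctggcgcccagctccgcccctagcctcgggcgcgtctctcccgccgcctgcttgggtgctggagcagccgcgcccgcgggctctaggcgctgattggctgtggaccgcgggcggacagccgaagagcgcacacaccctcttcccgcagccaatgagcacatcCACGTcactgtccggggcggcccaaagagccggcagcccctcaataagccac
Hk3: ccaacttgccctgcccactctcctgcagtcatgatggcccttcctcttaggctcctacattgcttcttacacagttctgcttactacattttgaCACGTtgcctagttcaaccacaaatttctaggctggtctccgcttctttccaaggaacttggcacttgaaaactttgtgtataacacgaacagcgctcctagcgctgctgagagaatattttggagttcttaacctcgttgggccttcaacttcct
Slc16a3: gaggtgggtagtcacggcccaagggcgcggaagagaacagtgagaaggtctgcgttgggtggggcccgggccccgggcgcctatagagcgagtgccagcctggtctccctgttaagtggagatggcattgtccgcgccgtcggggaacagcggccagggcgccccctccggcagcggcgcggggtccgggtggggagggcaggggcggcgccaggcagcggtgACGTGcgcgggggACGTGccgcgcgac
Hk2 holds ACGTG or CACGT at 226 and 52 bases before the start, Hk3 at 156, Slc16a3 at 27 and 14, and Eno3 holds neither here. The other form of the core, GCGTG, was not searched or marked, so no gene is said to lack a HIF core. Over windows of 250 bases before to 50 after each start, ACGTG on either strand was in 17 of 41 member windows (41.5%, 14 of 29 genes matched) and in 19.6% of 32851 windows of all genes. A second motif, AAAGGTCA on either strand, a site of nuclear receptors that bind as monomers, was in 0 of 41 member windows and in 1.51% of all windows. These are matches of letters only. Slc2a3 was not matched in this table.

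Isoform shares differed between the cell types in several families. Within hexokinase, which opens glycolysis, the share of Hk1 among the 6 types was highest in lymphocytes, that of Hk2 in monocytes and that of Hk3 in neutrophils. The share of Hk1 among hexokinase UMIs was 92.6%, 94.2% and 93.4% in B cells, 97.7%, 97.1% and 98.3% in T cells and 95.1%, 90.3% and 87.5% in NK cells. In neutrophils it was 18.5%, 18.4% and 18.3%, with Hk3 at 63.8%, 67.0% and 67.1%. In classical monocytes the shares were 33.3%, 31.9% and 45.1% for Hk1, 41.0%, 40.6% and 30.2% for Hk2 and 25.7%, 27.5% and 24.7% for Hk3.

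In levels, Hk3 was 526, 535 and 554 TMM CPM in neutrophils, 84.0 ± 3.99 in classical monocytes, 75.5 ± 13.9 in patrolling monocytes, 12.4 ± 5.84 in NK cells and 0.868 to 1.16 in B and T cells. Hk2, the inducible hexokinase of activated cells, was 146, 116 and 121 in neutrophils, 128, 130.2 and 102 in classical monocytes, 76.2, 80.1 and 47.4 in patrolling monocytes and 2.06 to 3.75 in lymphocytes. Hk1, the broadly expressed hexokinase, ranged only from 65.3 ± 2.11 in B cells to 154 ± 34.9 in NK cells, and it did not pass the test between myeloid and lymphoid cells on TMM (log2 −0.08, adjusted p = 0.24) but was lower in myeloid cells on plain totals (−0.68, adjusted p = 4e-15). Of single cells, 51.7 ± 1.02% of neutrophils held an Hk3 UMI against 0.333 ± 0.0218% of B cells at similar median depth. Among cells with at least 2000 UMIs, each thinned to 2000, these shares were 41.7 ± 1.08% and 0.173 ± 0.0341%.

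**Figure D2:**
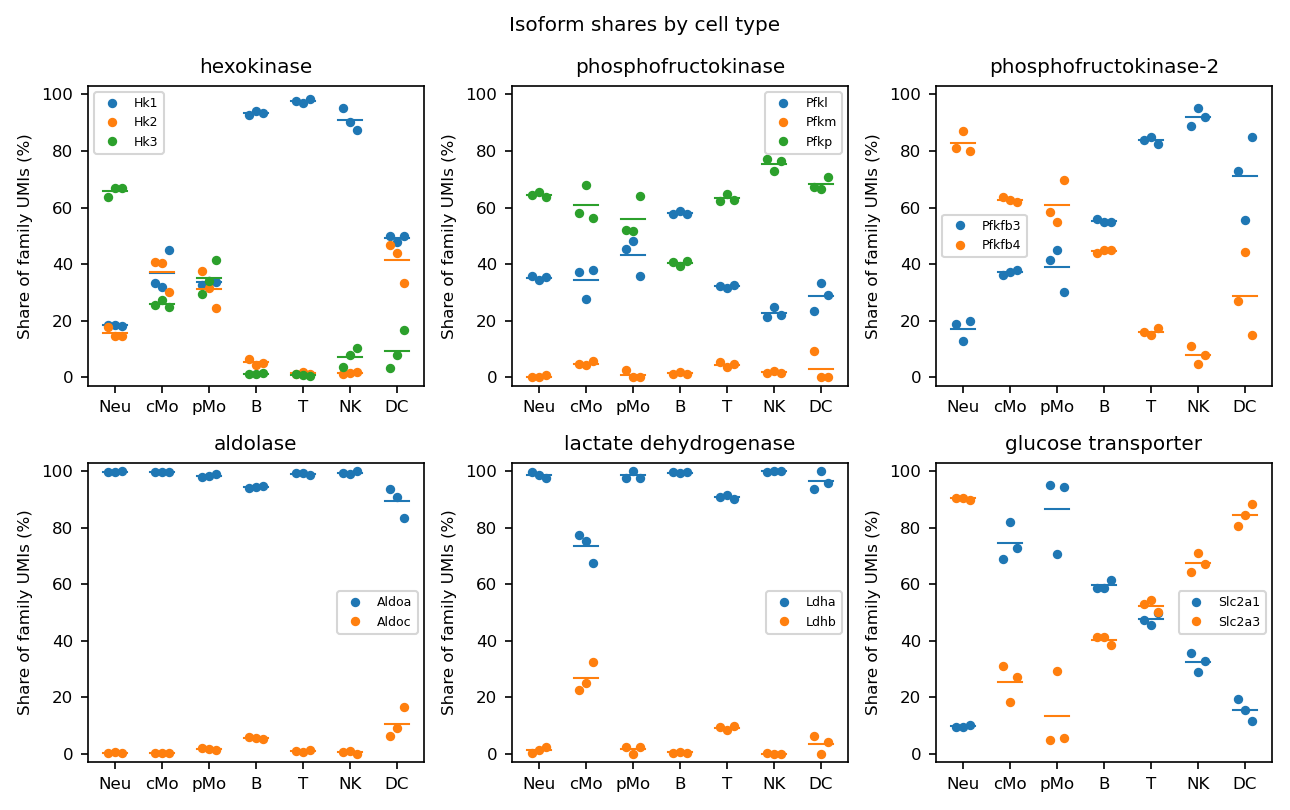
The y axis is the share of a family's UMIs (%) held by each isoform gene, with 1 point per sample and a line at the mean of 3, for neutrophils (Neu), classical (cMo) and patrolling monocytes (pMo), B, T and NK cells and dendritic cells (DC). The share of Hk3 averages 66.0% in neutrophils, that of Hk1 is 87.5% or more in every lymphocyte sample, and Ldhb is visible in classical monocytes and T cells.

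The shares of the 2 glucose transporters differed between neutrophils and monocytes, while both genes had higher TMM CPM in neutrophils. Slc2a3 (GLUT3, of high glucose affinity) held 90.4%, 90.6% and 89.9% of the UMIs of Slc2a1 and Slc2a3 in neutrophils but 31.0%, 18.2% and 27.3% in classical monocytes. Its neutrophil level was 1725, 1729 and 1684 TMM CPM against 12.1, 6.59 and 11.1 in classical monocytes. Lymphocytes lay between them, with 157 ± 18.8 in NK cells, 50.7 ± 3.56 in T cells and 48.2 ± 2.47 in B cells, so averaging the myeloid types on the log scale gave a negative fold (−0.82 ± 0.15, adjusted p = 2.1e-06) although the highest type is myeloid. Slc2a1 (GLUT1, the widespread transporter) was 182, 179.7 and 190.0 in neutrophils, 26.9, 29.7 and 29.5 in classical and 39.5 ± 3.25 in patrolling monocytes and 45.9 to 75.3 in lymphocytes.

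Phosphofructokinase, the committing step, is encoded by Pfkl (liver), Pfkm (muscle) and Pfkp (platelet). The share of Pfkp was 62.3%, 64.8% and 62.7% in T cells and 77.1%, 73.0% and 76.4% in NK cells, against 40.9%, 39.2% and 41.1% in B cells, where the share of Pfkl was highest of the 6 types (57.8%, 58.8% and 57.7%). Pfkm stayed at or below 5.63% in every sample of the 6 types fitted. In neutrophils Pfkm gave 1 UMI in 7692883, and in classical monocytes 40, a ratio of their TMM-scaled rates of 33.8 (exact 95% interval 5.73 to 1368, for counting error only). The bifunctional enzymes that set the level of fructose 2,6-bisphosphate, an activator of phosphofructokinase, also changed by type: Pfkfb4 held 81.2%, 87.2% and 80.2% of the Pfkfb3 and Pfkfb4 UMIs in neutrophils, 61.9% to 63.7% in classical monocytes, 43.9% to 45.2% in B cells and 4.76% to 17.3% in T and NK cells. Pfkfb3 levels were narrower, from 41.6 ± 2.78 in T cells to 128 ± 32.7 in neutrophils. Pfkfb3 was also called higher in myeloid than in lymphoid cells, with log2 folds of 0.87 to 1.04 as each replicate was left out.

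Lactate dehydrogenase turns pyruvate and lactate into each other, and its B subunit is typical of oxidative tissues. Ldha took 90.2% or more of the family's UMIs in every sample except those of classical monocytes. There Ldhb held 22.7%, 24.9% and 32.4%, at 54.4, 64.3 and 73.8 TMM CPM. T cells were the other Ldhb-bearing type, with 30.7, 27.4 and 29.5 TMM CPM and 9.35%, 8.45% and 9.78% of the family. NK cells gave 1 Ldhb UMI and T cells 903, a ratio of TMM-scaled rates of 105 (exact 95% interval 18.8 to 4157, counting error only). Among aldolases Aldoa took 94.0% or more in every sample of the 6 types, and the brain form Aldoc reached 5.97%, 5.57% and 5.23% in B cells.

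Levels here are relative to total UMIs and are not transcripts per cell. Neutrophils had higher TMM CPM than classical monocytes for both glucose transporters, Hk3, the lactate exporter Slc16a3, Pfkfb4, Pgd and Taldo1. Ldhb and Pgls were lower in neutrophils. Of 29 members 16 were higher in neutrophils and 6 lower, against 34.6% and 39.2% of all genes. At a fold of 2 or more 11 were higher and 3 lower, against 20.1% and 28.4%. The median log2 fold was 0.47 over the members and −0.08 over all genes. This split depends on scaling. On plain totals 10 members were higher and 16 lower, the all-gene median moved to −0.95, and 1766 genes were higher and 6610 lower against 3619 and 4101 on TMM. The TMM factors were 0.541 to 0.577 in neutrophils and 0.999 to 1.01 in classical monocytes, and S100a8 and S100a9, granulocyte alarmins, held 11.1%, 11.1% and 11.5% of the neutrophil UMIs, whose part in this was not tested.

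All 3 scalings gave the same call to 10 higher and 6 lower members, and these carry the comparison. Slc2a3 had the largest fold, with a log2 of 7.35 ± 0.14 (adjusted p = 1.3e-42) on TMM and 6.49 on plain totals. Slc16a3 (3.14 ± 0.08, adjusted p = 4e-41), Slc2a1 (2.71 ± 0.12, adjusted p = 1.7e-28), Hk3 (2.68 ± 0.09, adjusted p = 4.1e-35) and Pfkfb4 (2.54 ± 0.08, adjusted p = 3.6e-37) followed, with no overlap between the groups. Pfkfb4 lay at 634, 615 and 598 TMM CPM in neutrophils and at 111, 97.3 and 106 in classical monocytes. Taldo1 (2.25 ± 0.07) and Pgd (1.89 ± 0.07) were next. Pkm, Aldoa and Ldha had log2 folds of 1.19, 1.12 and 1.11 on TMM and of 0.34, 0.27 and 0.22 on plain totals.

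Lower in neutrophils were Ldhb (log2 −4.07 ± 0.31, adjusted p = 7.2e-18), at 1.45, 6.75 and 8.14 TMM CPM against 54.4, 64.3 and 73.8, and Pgls (−1.73 ± 0.12, adjusted p = 1.3e-19), at 76.3, 63.5 and 54.3 against 228, 219 and 237. For both genes the 3 neutrophil samples lay below every classical monocyte sample, and without replicate 1 the fold of Ldhb was −3.16. Pfkm, above, and Pdha1, a subunit of pyruvate dehydrogenase (−0.49 ± 0.11, adjusted p = 9.9e-05), were also lower. Tpi1 (−0.43) lost its call without replicate 1 (−0.08, adjusted p = 0.77) or replicate 3 (−0.29), and Pfkp (−0.25, adjusted p = 0.045) lost it without any of the 3. Rpia, Hk1, Tkt and Pgk1 were higher on TMM by 0.47, 0.42, 0.25 and 0.50 and lower on plain totals by the values −0.40, −0.44, −0.60 and −0.36, so no direction is given for them. Without replicate 1, Hk1, Tkt and Pgk1 also lost their calls on TMM (0.31, 0.21 and 0.36). Gpi1 and Pfkfb3, higher on TMM (0.97 and 1.11), did not pass on plain totals (0.12 and 0.25).

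**Figure D3:**
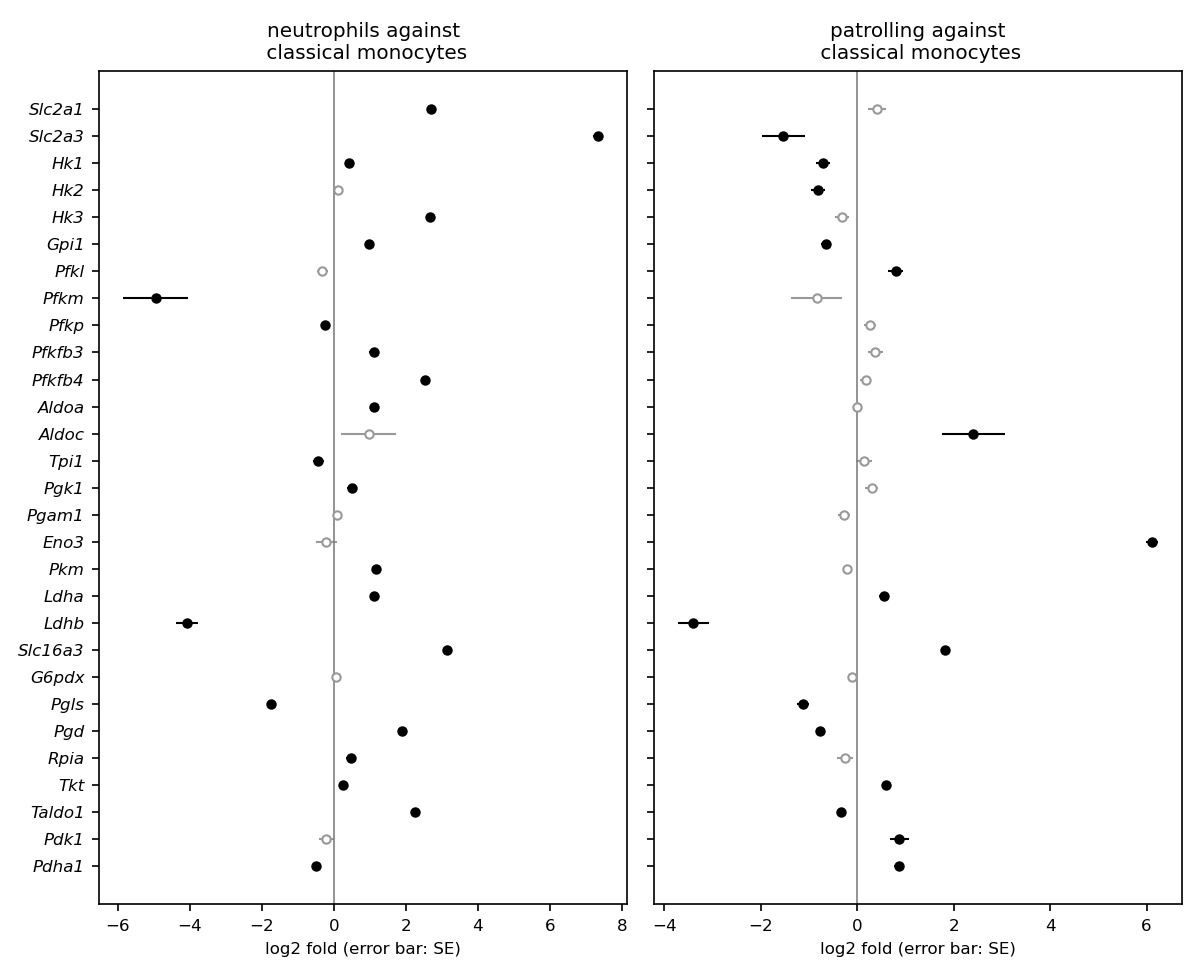
The x axes are log2 folds with SE bars from edgeR on TMM, for neutrophils (left) and patrolling monocytes (right) against classical monocytes, with filled points at an adjusted p under 0.05. Slc2a3 leads on the left at 7.35, Eno3 on the right at 6.11, and Ldhb is below 0 in both. Both panels share the classical monocytes.

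Patrolling monocytes differed from classical monocytes in Eno3 above all. Eno3 encodes the enolase isoform known from skeletal muscle. Its level was 979, 867 and 810 TMM CPM in patrolling monocytes and 11.1, 13.2 and 20.9 in classical monocytes, a log2 fold of 6.11 ± 0.12 (adjusted p = 9.4e-45). No other type fitted exceeded 28.7 in any sample. Means were 9.57 ± 3.74 in neutrophils, 11.5 ± 2.94 in NK cells, 22.4 ± 2.71 in B cells and 27.5 ± 1.27 in T cells. An Eno3 UMI was present in 86.5 ± 8.39% of patrolling monocytes, in 10.8 ± 2.08% of the more deeply sampled classical monocytes and in 1.35 ± 0.515% of neutrophils. Among cells with at least 2000 UMIs, each thinned to 2000, the shares were 71.4 ± 8.47%, 2.37 ± 0.569% and 0.877 ± 0.251%.

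Over all members, 8 were higher in patrolling monocytes and 8 lower, against 18.2% and 19.7% of all genes, and both medians were −0.01. At a fold of 2 or more 3 were higher and 3 lower, against 6.47% and 9.17%. The lactate exporter Slc16a3 (log2 1.83 ± 0.10, adjusted p = 4.3e-24), Pdha1 (0.87 ± 0.10, adjusted p = 1.9e-10), Tkt (0.60 ± 0.08) and Ldha (0.56 ± 0.11) were higher beside Eno3. Pdha1 lay at 234, 187 and 204 TMM CPM in patrolling monocytes and at 118, 131 and 118 in classical monocytes, without overlap. Pdk1, Pfkl and Aldoc were higher (0.87, 0.80 and 2.41) but lost the call without replicate 1 (0.39, 0.66 and 2.46), when 5 members were higher and 2087 genes were called in place of 3962. The level of Aldoc rests on 18 UMIs against 6.

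Ldhb was lower in patrolling monocytes (log2 −3.40 ± 0.32, adjusted p = 1.7e-13), with 6.71, 0 and 4.99 TMM CPM, and the fold was −4.62 without replicate 1. Pgls followed (−1.12 ± 0.12, adjusted p = 2.9e-11), at 111, 76.7 and 107 against 228, 219 and 237. Hk2 (−0.81 ± 0.15), Pgd (−0.77 ± 0.09), Hk1 (−0.71 ± 0.14), Gpi1 (−0.65 ± 0.10) and Taldo1 (−0.34 ± 0.08) were lower too, none with overlapping samples. Slc2a3 was called lower (−1.53 ± 0.45, adjusted p = 0.0054) on 10 UMIs, at 1.92, 16.7 and 2.49 TMM CPM against 12.1, 6.59 and 11.1. Replicate 2 lay above every classical sample, against the called direction, and without replicate 1 the fold was 0.01 (adjusted p = 1). Barcodes called as platelets were rich in Slc2a3. Platelet marker UMIs were in 17.9% of the patrolling monocytes of replicate 2 against 1.39% and 8.42% in the others. Of the classical monocytes of replicates 1, 2 and 3, 3.94%, 22.6% and 13.3% held one, and their Slc2a3 was lowest in replicate 2. With all cells holding a platelet marker UMI removed, the fold was −2.07 (adjusted p = 0.00053). The part of platelet RNA in these values was not tested.

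**Figure D4:**
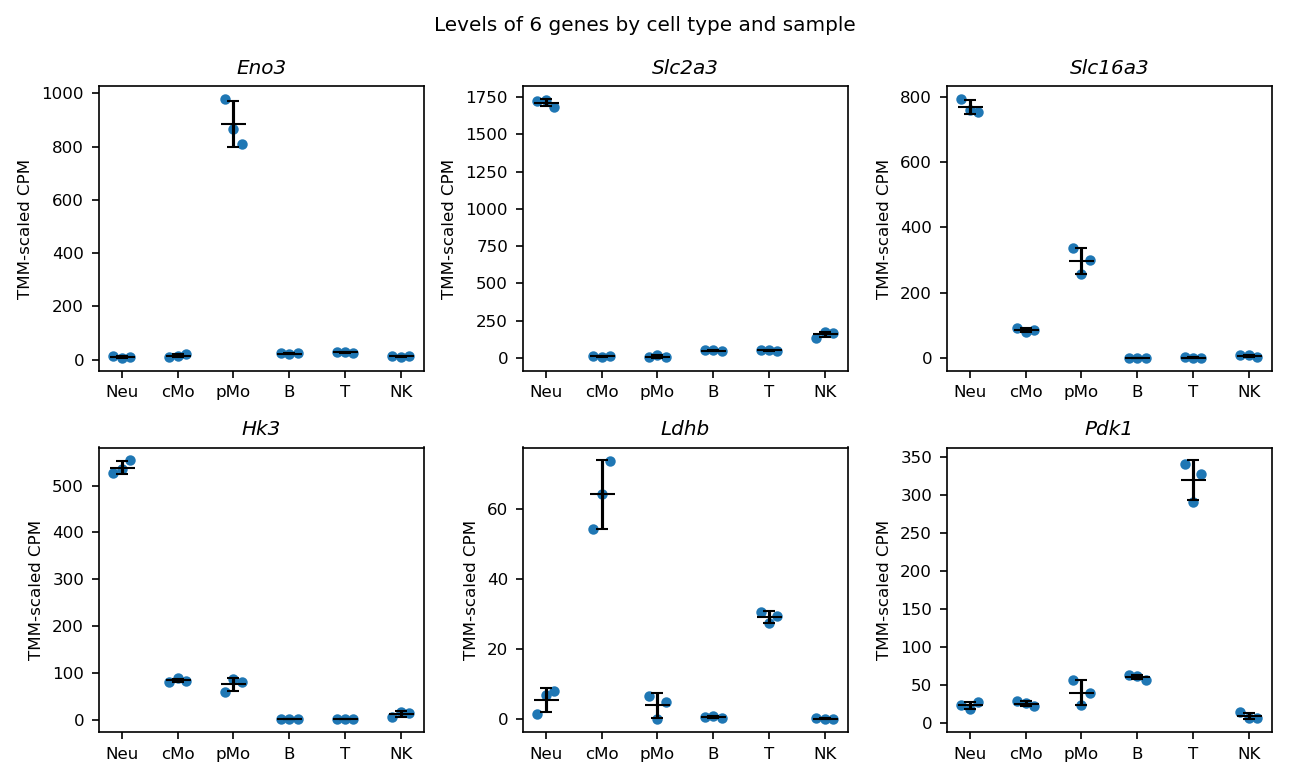
The y axes are TMM CPM of 6 genes, with 1 point per sample, the mean as a bar and SD whiskers, for neutrophils (Neu), classical (cMo) and patrolling monocytes (pMo), B, T and NK cells. Eno3 is high in patrolling monocytes, Slc2a3, Slc16a3 and Hk3 in neutrophils, Ldhb in classical monocytes and then T cells, and Pdk1 in T cells at 320 against 60.4 or less elsewhere.

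Among lymphocytes, T cells stood apart by Pdk1, Ldhb and Ldha and B cells by Pfkfb4, Aldoc, Rpia and Pgls. Of 29 members 9 were higher in B than in T cells and 12 lower, against 33.1% and 33.5% of all genes, so their number was near the background. At a fold of 2 or more 3 were higher and 8 lower, against 11.7% and 12.5%. On plain totals 38.5% of all calls were higher in B cells against 49.8% on TMM, with 8 members higher and 14 lower. Pdk1, the kinase that shuts pyruvate dehydrogenase, held 342, 292 and 328 TMM CPM in T cells and 62.6, 61.8 and 56.9 in B cells (log2 −2.41 ± 0.05, adjusted p = 3.8e-43). NK cells had 14.0, 6.80 and 5.75, and a Pdk1 UMI was in 70.7 ± 2.74% of T cells, 19.4 ± 1.43% of B cells and 3.71 ± 1.63% of NK cells.

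Ldhb was lower in B than in T cells (log2 −5.65 ± 0.22, adjusted p = 9.3e-31), at 0.599 ± 0.241 TMM CPM. Ldha was lower as well (−1.49 ± 0.08, adjusted p = 1.5e-25), at 96.6, 105 and 105 against 297, 297 and 272, with no overlap. Pfkp (−1.10 ± 0.06), Hk1 (−1.09 ± 0.06), Pgk1 (−1.03 ± 0.08), Pdha1 (−0.89 ± 0.06), Pkm (−0.80 ± 0.07) and Gpi1 (−0.47 ± 0.08) were lower in B cells. Pfkm was lower on low levels (−2.09 ± 0.25), at 2.16 ± 0.494 against 8.87 ± 1.77. Aldoc (2.67 ± 0.23, adjusted p = 1.2e-15) and Pfkfb4 (2.19 ± 0.10, adjusted p = 5.4e-28) were higher. Aldoc held 11.5, 12.1 and 10.8 TMM CPM in B cells and 1.66, 1.25 and 2.58 in T cells. Pfkfb4 held 35.4, 36.8 and 35.7 against 7.63, 7.06 and 9.40, again without overlap. Pgls (0.80 ± 0.08), Rpia (0.77 ± 0.06), Slc2a1 (0.63 ± 0.06), Pfkl (0.40 ± 0.07) and Taldo1 (0.33 ± 0.07) were higher by less. Slc16a3 (−1.11) and Hk2 (1.03) lost their calls without replicate 1 (−0.47 and 0.69), Eno3 (−0.25) without replicate 2 (−0.16) and Tpi1 (0.31) without replicate 3 (0.19) or on plain totals.

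NK cells differed from T cells by 10 higher and 10 lower members, against 23.6% and 28.4% of all genes. At a fold of 2 or more 5 were higher and 4 lower, against 9.88% and 12.5%. Pfkp was highest of the 6 types in NK cells, with 274, 280 and 270 TMM CPM against 119, 125 and 128 in T cells (log2 1.17 ± 0.07, adjusted p = 8.6e-21). Slc2a3 followed with 136, 172 and 164 against 51.4, 53.8 and 46.8 (1.55 ± 0.12, adjusted p = 5.7e-17), and Tpi1, triose phosphate isomerase, with 57.4, 71.4 and 48.9 against 18.6, 26.2 and 16.8 (1.60 ± 0.15, adjusted p = 5.4e-14). Hk3 (2.68 ± 0.42) was higher at 5.82, 17.0 and 14.4 against 1.16 ± 0.391, and Slc16a3 (1.84 ± 0.36) at 8.54, 10.2 and 2.87 against 1.29 to 2.71. For each of these 5 genes the NK samples lay above all T samples. Without replicate 1 the log2 fold of Hk3 was 3.99 and that of Pdk1, below, −5.58. Slc2a1 (0.72 ± 0.11) and Pgam1 (0.59 ± 0.14) were higher by less, and Pgls (−0.77 ± 0.12), Ldha (−0.48 ± 0.09) and Tkt (−0.41 ± 0.10) were lower. Pdk1 (−4.80 ± 0.15, adjusted p = 4.7e-36), Eno3 (−1.30 ± 0.23) and Gpi1 (−1.05 ± 0.11) were lower, and Ldhb, with 1 NK UMI, is given above as a ratio. Rpia, Pgd, Pdha1, Aldoa, Pgk1 and Pfkl lost their calls without replicate 1, which left 3356 genes called in place of 5436, with log2 folds of 0.17, 0.27, −0.44, −0.28, −0.46 and 0.48.

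T cells were split into CD4-positive cells (at least 1 Cd4 UMI and no Cd8a or Cd8b1 UMI) and CD8-positive cells (at least 2 Cd8a and Cd8b1 UMIs and no Cd4 UMI). Over 10489 genes tested, 6 members were higher in CD8-positive cells and 7 lower, against 10.5% and 10.2% of all genes. At a fold of 2 or more 0 were higher and 2 lower, against 3.21% and 3.05%. Ldhb had the clearest difference, with 20.8, 13.2 and 14.7 TMM CPM in CD8-positive and 43.4, 48.6 and 44.9 in CD4-positive cells (log2 −1.33 ± 0.16, adjusted p = 3e-09). Pdk1 was lower at 294, 263 and 279 against 436, 354 and 402 (−0.51 ± 0.08, adjusted p = 2.7e-07), and Pkm at 145, 144 and 139 against 215, 190 and 188 (−0.48 ± 0.08, adjusted p = 2.2e-06). Pfkp was higher at 141, 151 and 140 against 95.2, 99.0 and 119 (0.48 ± 0.09, adjusted p = 2.1e-05), as was Pgls (0.39 ± 0.09), and Pdha1 was lower (−0.33 ± 0.09). The CD4 and CD8 samples overlapped for none of these 6 genes. Aldoc (−2.11), Pfkfb4 (−0.86) and Pfkfb3 (−0.59) lost their calls without replicate 1 (−1.74, −0.56 and −0.53). The members higher numbered 2, 3 and 2 without replicates 1, 2 and 3, and the members lower 4 without replicate 1, when 1292 genes were called in place of 2171. Gpi1, Tkt and Tpi1 (0.28, 0.23 and 0.46) lost their calls whichever replicate was left out, and Pgam1 (0.43) lost it without replicate 1 or replicate 3.

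Dendritic cells numbered 29, 8 and 11 per library. Since replicate 2 held fewer than the minimum of 10 cells, the type was left out of the fit, so their values carry no test and are plain CPM. Cells called from the conventional or the plasmacytoid list were summed, so these values can mix both kinds and describe neither alone. Slc2a3 was 99.4, 157 and 176 CPM against 12.2, 6.58 and 11.0 in classical monocytes on the same scale, and it held 80.6%, 84.6% and 88.2% of the transporter UMIs. Their hexokinase UMIs fell to Hk1 and Hk2 (about 49.3% and 41.3%), and Hk3 was 23.9 ± 14.2 CPM against 84.1 ± 3.63 in classical monocytes. Slc16a3 was 27.3 ± 20.6 against 86.3 ± 6.68, and Pgd was 139, 71.2 and 129 against 553, 580 and 576. Pgls was 416 ± 116 and Taldo1 642 ± 209, against 228 ± 9.16 and 779 ± 54.2 in classical monocytes. Slc2a3, Hk3, Slc16a3 and Pgd did not overlap classical monocytes in any sample. Hk3, Slc16a3 and Ldhb each rested on 7 UMIs and Aldoc on 8 over all 48 cells.

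Other genes of the pathway were taken from 8 further lists. Between myeloid and lymphoid cells, 7 of 12 glycogen and gluconeogenesis genes tested were higher and 2 lower on TMM, with a median log2 of 0.96, and 6 higher and 5 lower on plain totals. Over all genes 35.5% were higher and 44.4% lower on TMM. Pygl, the glycogen phosphorylase of liver and leukocytes, was 922 ± 39.2 TMM CPM over the myeloid types and 5.36 ± 1.11 over lymphocytes (log2 6.88 ± 0.07), and Ppp1r3d, a glycogen-targeting subunit of protein phosphatase 1, 122 ± 4.63 against 0.0832 ± 0.0180 (log2 8.65, and 7.97 without replicate 1). Against classical monocytes, neutrophils were higher in 8 and lower in 4 of these 12 genes (7 and 4 on plain totals), against 34.6% and 39.2% of all genes, including Ppp1r3b at 308 ± 10.3 against 12.1 ± 6.06 (log2 4.71). The sugar transporter Slc2a6 was higher in myeloid cells (301 ± 9.07 against 12.9 ± 0.263), and the lactate carrier Slc16a1 was lower (2.35 ± 0.169 against 28.7 ± 3.05). Slc16a1 was highest in T cells, at 59.1 ± 5.36, and within them in CD8-positive cells (85.8 ± 4.69 against 32.5 ± 4.55, log2 1.38 ± 0.11, adjusted p = 9e-16). The transporter list had 3 higher and 2 lower of 7 genes tested in myeloid cells on TMM and 2 higher and 5 lower on plain totals.

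Among all genes tested, 39.2% were lower and 34.6% higher in neutrophils than in classical monocytes on TMM. On plain totals 6610 of 10456 were lower and 1766 higher. Of 10 genes for pyruvate entry to mitochondria 8 were lower and 2 higher in neutrophils (9 and 1 on plain totals). The 2 were the pyruvate carrier subunits Mpc1 (630 ± 116 against 141 ± 3.15, log2 2.17 ± 0.10) and Mpc2 (log2 0.34 on TMM and −0.52 on plain totals), while Pdhx, a pyruvate dehydrogenase component, was 7.81 ± 3.82 against 36.6 ± 5.14. Of 16 citrate cycle genes 8 were lower and 3 higher there, among them Fh1, fumarase (log2 −3.71 ± 0.24, and −4.52 without replicate 1), and Mdh2, malate dehydrogenase (1.41 ± 0.10), and on plain totals 15 were lower and 1 higher. Among 7 other pentose phosphate and nucleotide sugar genes 5 were lower and 1, H6pd, was higher on TMM (0.79 ± 0.09) but not on plain totals (−0.08), when 6 were lower. In patrolling against classical monocytes Mpc1 was lower (29.6 ± 6.23 against 141 ± 3.15, log2 −2.16 ± 0.16), as were 7 of 16 citrate cycle genes, with 1 higher, against 19.7% and 18.2% of all genes.

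Among 11 regulators of glycolytic transcription, 6 were higher and 3 lower in myeloid cells on TMM, and 3 higher and 7 lower on plain totals. Over all genes 35.5% were higher and 44.4% lower on TMM, and 2183 were higher and 6949 lower on plain totals. Myc was lower, at 6.22 ± 2.87 TMM CPM against 89.8 ± 8.22 (log2 −4.07 ± 0.17, and −5.96 without replicate 1), and Egln3, a HIF prolyl hydroxylase that is itself a HIF target, was higher at 48.9 ± 3.14 against 4.21 ± 1.03. Egln3 and Txnip, an inhibitor of glucose uptake, were also higher in neutrophils than in classical monocytes, at 132 ± 5.86 against 5.50 ± 3.76 and at 6358 ± 304 against 1343 ± 212. Of 8 hypoxia targets outside glycolysis, 5 were higher and 3 lower in neutrophils than in classical monocytes (3 and 4 on plain totals). Over all genes 34.6% were higher and 39.2% lower in that comparison on TMM. Ddit4 (433 ± 85.5 against 32.7 ± 4.90) and P4ha1 (151 ± 23.6 against 51.4 ± 1.97) were higher in patrolling than in classical monocytes. Between T cell subsets Epas1, HIF-2α, was lower in CD8-positive cells (1.85 ± 0.882 against 21.6 ± 1.45, log2 −3.29, and −3.91 without replicate 1) and Myc higher (196 ± 21.2 against 104 ± 16.4). B cells exceeded T cells in Pck2, mitochondrial phosphoenolpyruvate carboxykinase (142 ± 8.91 against 30.6 ± 3.32). Of 7 other glycolytic genes tested, 1 was higher and 3 lower in myeloid cells (1 and 6 on plain totals). Bpgm, named after its values were seen, makes the red cell metabolite 2,3-bisphosphoglycerate and was 50.9, 635 and 193 in the neutrophils of replicates 1, 2 and 3, in the order of their red cell marker UMIs, and 15242 ± 2821 plain CPM in barcodes called as red cells. The part of free red cell RNA in these values was not tested.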

How the data were processed

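Raw UMI counts per gene and barcode were deposited for 3 libraries, written by cellranger 7.1.0 per the file headers, together with barcode and gene identifiers. No source used here names the genome build or the probe set. The members and all lists were chosen with earlier results of these data known, and the limits of the cell calls after the UMI distributions were seen. All called members are named, with fuller values for isoform families and, in each comparison, the 6 largest called folds at 10 TMM CPM or more. From each other list at most the 2 highest and 2 lowest called genes at 10 CPM or more, moved alike in all 3 samples, are named.

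Counts were summed per library and cell type, filtered with filterByExpr, scaled by TMM and fitted in edgeR 4.0.16 (R 4.3.3) by the robust quasi-likelihood test. A single fit took 18 columns, with the library as a block because each library supplied every type. Adjusted p-values are Benjamini-Hochberg values with a threshold of 0.05. Dendritic cells, with 8 cells in 1 library, fell below the minimum of 10 cells per sample, so the planned test against classical monocytes was not run. The fit was tested on simulated data for patrolling against classical monocytes. Of 106 genes changed by a log2 of 2, 95.3% were called, of 94 changed by 1, 69.1%, and of 9766 unchanged genes 0.0819%. The simulation gave every type the same profile apart from these changes, a fixed spread and no library effect. It therefore does not cover the wide differences between the real types or libraries, nor the choice of scaling. Shares of cells cover counting error only where an interval is given. Alternatives were plain totals, DESeq2 1.42.0 size factors and Wald test, no count filter, no block, stricter marker limits (16 UMIs), removal of Scrublet doublets (6.11%, 2.16% and 2.66% of barcodes; scanpy 1.11.5), removal of cells with a platelet marker UMI, and each replicate left out. The split of T cells was fitted separately, and its alternatives were chosen after seeing the data.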

Additional observations from a re-analysis of the deposited data

Results flagged for a closer look

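Barcodes called as platelets (45, 182 and 163 in replicates 1, 2 and 3) entered no comparison but held members above the level that a count of 0 allows, which was 31.97, 11.0 and 13.4 plain CPM. Slc2a3 averaged 2710 plain CPM in them, with 3165, 1924 and 3042 in the 3 libraries. Taldo1 averaged 1785 and Hk1 averaged 966 plain CPM. No cell-free or empty-droplet control was used here, so the share of free RNA in these values was not tested.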

How the results depend on the processing

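On plain library totals, neutrophils against classical monocytes gave 10 members higher and 16 lower in place of 16 and 6, and the log2 folds of Rpia (−0.40), Hk1 (−0.44), Tkt (−0.60), Pgk1 (−0.36), Mpc2 (−0.52) and H6pd (−0.075) changed sign, as did Ldha between myeloid and lymphoid cells (−0.060). The share of higher calls among all genes was then 21.1% in place of 46.9% for neutrophils and 23.9% in place of 44.5% for myeloid cells. Without replicate 1 the fold of Slc2a3 between monocyte types was 0.0051, against −2.55 without replicate 2, and over its alternatives the adjusted p ran from 4.1e-05 to 1. Leaving out each replicate gave 2087 to 3676 genes called for patrolling against classical monocytes (main count 3962) with 5 to 8 members higher, 3356 to 5118 for NK against T cells (5436), and 1292 to 2043 for CD8-positive against CD4-positive cells (2171) with 2 to 3 members higher and 4 to 7 lower.

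Without the replicate block, the genes called were 8248 for myeloid against lymphoid cells, 7601 for neutrophils and 3696 for patrolling monocytes against classical monocytes, 6046 for B and 5049 for NK against T cells, and 1682 for the T cell subsets. Fits with the block, which pairs cell types of 1 library, called 8361, 7720, 3962, 6965, 5436 and 2171. Removing it ended the calls of Tpi1 (3 comparisons), Pfkp and Tkt (1 each).

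Of 1449 gene folds recomputed, 1386 kept direction and call, 55 lost the call (38 of them without 1 replicate) and 8 changed sign. Of the shares of isoforms, 8 of 343 moved by more than their SD over samples, such as Ldhb in T cells (10.3% as a mean over cells). The test of dendritic cells was not run. Depth limits members, beside the untested Fbp1, where a type gave 18 UMIs or fewer. In the types fitted these were Pfkm, Ldhb, Aldoc, Slc2a3, Hk2 and Pfkfb4. In dendritic cells they were Hk3, Slc16a3, Slc2a1, Tpi1, Pdk1, Eno3, Pfkm, Ldhb and Aldoc.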
